A study of Mus musculus with 6 samples.

Results

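Secreted and membrane proteins leave the endoplasmic reticulum (ER) in vesicles with a COPII coat, and ER residents that escape are brought back from the Golgi in vesicles with a COPI coat. GTPases of the Sar1 and Arf families start the 2 coats, cargo receptors load them, and tethers and SNARE proteins dock and fuse the vesicles at the next membrane. The luminal cells of the prostate export large amounts of protein into the prostatic fluid and use this route throughout. The 42 genes described here were chosen by name from this machinery. They cover the COPII coat, the COPI coat, the p24 family, KDEL and other cargo receptors, SNAREs, and Golgi tethers. Of the 42, 41 could be followed among the 19938 genes measured, each through its brightest probe set with 1 gene symbol. Kdelr2, one of the KDEL receptors, was not analysed here.

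Whole prostates of 4-week-old mice were profiled on 6 arrays, 1 per mouse. The 3 AR3 transgenic mice carried a transgene for AR3, a splice variant of the androgen receptor, and the 3 wild-type mice were their littermates. The promoter that drives the transgene, its founder line and the strain are not named in the sources used here. The question of the series was which genes differ in expression between the genotypes at this age.

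The array reports a brightness, here called intensity, for each probe set. Median intensity per array lay between 94.5 and 110.8 over all tested probe sets, and the number of arrays limits the precision. Probe sets of olfactory receptor genes, which a prostate should hardly use, gave a scale of background, with a 95th percentile between 66.9 and 91.9 on the 6 arrays. All single values of the 41 genes lay above it, between 204.5 and 5306. The labelled tissue was checked on its markers. The secretory gene Pbsn (probasin) stood at 8078 ± 216 in transgenic and 9343 ± 366 in wild-type prostates (SD, n = 3 each) and the epithelial adhesion gene Epcam at 4068 ± 119.5 in transgenic and 3554 ± 187 in wild-type prostates (SD, n = 3 each). No transgenic or wild-type array lacked the tested markers of luminal cells.

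One gene of the 41 changed past the threshold. Kdelr3, the third KDEL receptor, fell in transgenic prostates to 66.2% of the wild-type mean, while its paralog Kdelr1 had a log2 change of only −0.03. The other 40 genes did not pass the threshold. Their changes were small, between −0.31 and 0.06 on the log2 scale, and most pointed the same way: 36 of the 41 had values below 0. The COPII GTPases Sar1a and Sar1b and the tether Uso1 came next in size. The test was limma on log2(intensity + 16), with p-values adjusted over all 28944 probe sets by Benjamini and Hochberg and a threshold of 0.05. Each log2 change is transgenic minus wild-type.

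The direction of the changes was more one-sided among the traffic genes than among all genes. Called lower were 91 of 19938 genes (0.456%) and called higher 235 (1.18%), against 1 and 0 of the 41 traffic genes. An unadjusted p under 0.05 with a lower value was found for 11 of the 41, against 5.27% of all genes. The same with a higher value was found for 0 of the 41, against 6.91% of all genes. A log2 change below 0 was seen in 36 of 41 traffic genes (87.8%), and in 46.1% of all genes. The count was 39 of 41 with quantile normalisation or median centring of the arrays, 30 with array weights and 29 without wild-type replicate 1. The share of 46.1% is not a background for these counts, since the changes of all probe sets moved too. Their median was 0.005 in the main fit, −0.008 with quantile normalisation and −0.033 with median centring. With array weights it was −0.002, and without wild-type replicate 1 it was −0.026. In 21 of 41 genes (51.2%) all 3 transgenic values lay below all 3 wild-type values, against 8.61% of all genes, and in 0 all lay above, against 10.5%. The traffic genes are bright, and bright genes vary less between mice. The SD of log2 values within a genotype had a median of 0.05 for the 41, 0.08 for genes of at least their brightness and 0.12 for all genes. Genes of that brightness thus still varied more than the 41, and shares over them are not matched in spread. Among the 6652 genes at least as bright as the dimmest of the 41, 6.12% had a lower value with an unadjusted p under 0.05, 45.2% had a change below 0, and 12.2% had transgenic values all below the wild-type values. The median log2 change of the 41 was −0.09, that of all genes 0.01. The genes were chosen with earlier results of these data known, so these shares are descriptions of the list and carry no test.

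**Figure D1:**
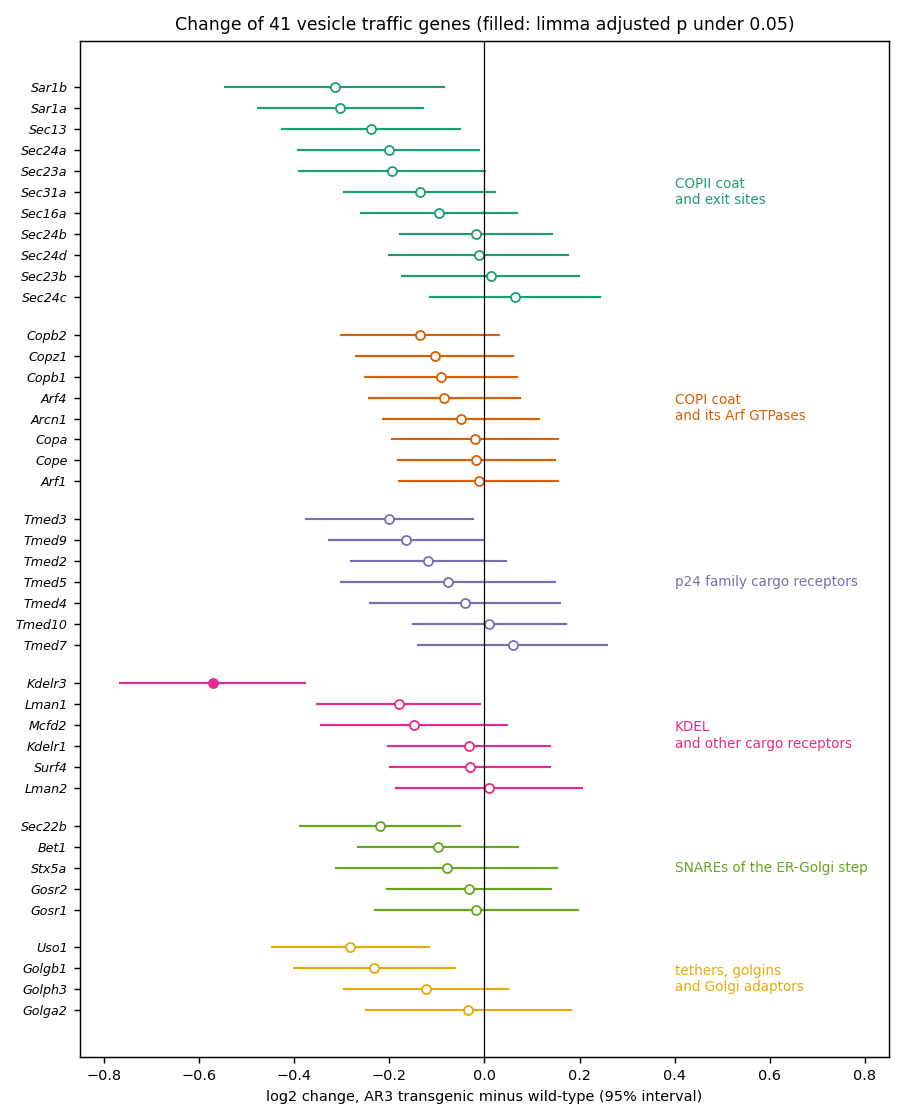
Log2 change of each of the 41 traffic genes between AR3 transgenic and wild-type prostates (x axis), grouped by role, with the 95% confidence interval of the limma fit as a line. Filled points pass an adjusted p of 0.05: only Kdelr3 does, at −0.57, while 30 of the 41 intervals include 0.

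KDEL receptors sit in the Golgi, bind chaperones of the ER by the signal at their tail, and return them in COPI vesicles. Kdelr3 had intensities of 376, 351 and 348 in the transgenic mice, against 509.7, 527 and 587 in the wild-type mice. The genotypes did not overlap, and the lowest wild-type mouse stood well above the highest transgenic mouse. Its log2 change was −0.57 ± 0.08 (SE, adjusted p 0.017), with a 95% confidence interval of −0.77 to −0.38. In size it ranked 70 among the 91 genes called lower. The call was lost without wild-type replicate 2 (adjusted p 0.075) or transgenic replicate 1, 2 or 3 (0.056, 0.105 and 0.110), while the change lay between −0.61 and −0.51 without any 1 array. In a whole organ, fewer cells of a type and less RNA per cell cannot be told apart. Kdelr1 had intensities of 1344, 1284 and 1243 in the transgenic mice, against 1283, 1352 and 1324 in the wild-type mice. Those ranges overlap, and the interval of its change ran from −0.20 to 0.14.

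The promoter of Kdelr3 is shown because it belongs to the one gene that passed the threshold, and because it holds a motif that recurs in this gene group. Sequences are those of RefSeq on build GRCm38.p6, where 36 of the 42 genes had a window from 250 bases before to 50 bases after a transcription start. The motif is TGACGTGG, a core element bound by factors of the unfolded protein response and related to the cyclic AMP element. It was searched on both strands and is printed in capitals. Where it lies on the opposite strand it reads CCACGTCA. The 250 bases before the start of Kdelr3 lie at chr15:79516158-79516407 on the plus strand, with the motif 30 to 23 bases before the start:
Kdelr3: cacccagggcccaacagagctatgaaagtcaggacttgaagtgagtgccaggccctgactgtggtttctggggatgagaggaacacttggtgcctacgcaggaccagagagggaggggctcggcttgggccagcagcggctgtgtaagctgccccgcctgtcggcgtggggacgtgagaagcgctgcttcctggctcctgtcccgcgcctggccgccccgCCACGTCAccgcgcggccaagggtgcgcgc

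Of the 36 genes with a promoter window, 7 held TGACGTGG (19.4%), against 0.714% of 27025 genes with a window and 1.29% of 5416 windowed genes at least as bright as the dimmest of the 41. Among 86 other genes of ER to Golgi traffic 3 held it, and among 41 genes of ER folding 0 did. The 7 span several roles, namely Kdelr3, the COPII coat genes Sec23a and Sec24d, the COPI coat genes Copb1 and Copb2, the GTPase Arf1 and the SNARE Stx5a. The sites of the other 6 genes are printed with up to 11 bases on each side, in the gene's own direction. They lie at chr12:59011993-59012022 (minus strand), chr3:123267459-123267488 (plus), chr7:114254690-114254719 (minus), chr9:98563713-98563742 (plus), chr11:59228228-59228257 (minus), and chr19:8741422-8741451 and chr19:8741452-8741473 (plus), in the order below:
Sec23a: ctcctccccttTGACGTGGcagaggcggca
Sec24d: gcccgggcgccTGACGTGGcactagcaacc
Copb1: cccgcccccttCCACGTCAgccaaggactt
Copb2: tcccggaagttCCACGTCAgtgggttggcc
Arf1: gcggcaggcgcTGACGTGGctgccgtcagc
Stx5a, first site: tggcgcagcagCCACGTCAccgagttagga
Stx5a, second site: gtacgtctaggTGACGTGGcgg

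The changes of genes with and without an element are given side by side, with no test. The 7 genes that hold TGACGTGG had a median log2 change of −0.09, and the 29 windowed genes without it one of −0.08. The shorter core TGACGTG, which lies within TGACGTGG, was found in the same number of genes, 7 of 36. It stood in 2.22% of all windows and 3.95% of those of the bright genes. The element CCACG alone, which overlaps the opposite strand of that core, stood in 28 of 36 windows (77.8%), against 35.5% of all and 54.5% of the bright genes. The median change was −0.09 for the 28 genes with CCACG and −0.04 for the 8 without. The ER stress response element, which is CCAAT, any 9 bases, then CCACG, stood in 0 of 36 windows of the traffic genes, and in 9 of 41 windows of the ER folding genes, against 0.137% of all. Its second form, with ATTGG, any 1 base, then CCACG, stood in 0 of 36 and 2 of 41, against 0.0444% of all. The cyclic AMP element TGACGTCA was in 3 of 36, against 2.03% of all and 3.73% of the bright genes. The median change was −0.03 for the 3 with it and −0.09 for the 33 without. A match is a run of letters in the window and says nothing of binding.

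In the COPII coat, Sar1 GTPases insert into the ER membrane and recruit the inner coat of Sec23 and Sec24, onto which Sec13 and Sec31 build the outer cage. Of the 11 genes, 0 passed the threshold in limma, and 4 had an unadjusted p under 0.05 (all lower), against 5.27% of all genes. Changes were below 0 in 9, against 46.1% of all genes. In 7 the genotypes did not overlap, with the transgenic values lower, against 8.61% of all genes. For the bright genes described above these shares were 6.12%, 45.2% and 12.2%. Here and in the other roles, genotypes that did not overlap in a single gene are a description and carry no test. Sar1a had intensities of 1523, 1458 and 1597 in the transgenic mice, against 1848, 1857 and 1951 in the wild-type mice. Its change was −0.30 ± 0.07 (SE, adjusted p 0.14), and every transgenic mouse lay below every wild-type mouse. Sar1b, the paralog needed in the human intestine for the export of large lipoproteins, had 1832, 1510 and 1688 in the transgenic mice, against 2014, 1980 and 2267 in the wild-type mice. It varied more between mice, with a change of −0.31 ± 0.10 (SE, adjusted p 0.26), and its genotypes did not overlap either.

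Sec13, an outer coat subunit that also serves in the nuclear pore, had 1097, 1022 and 973 in the transgenic mice, against 1182, 1191 and 1281 in the wild-type mice. Its change was −0.24 ± 0.08 (SE, adjusted p 0.29). Sec31a, its partner in the cage, had 1696, 1670 and 1705 in the transgenic mice, against 1848, 1840 and 1890 in the wild-type mice, a change of −0.14 ± 0.07 (SE, adjusted p 0.48). Both genes were lower in every transgenic mouse, but neither difference passed the threshold.

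Sec23a, the subunit that makes Sar1 hydrolyse GTP, had 499, 441 and 478 in the transgenic mice, against 555, 507 and 567 in the wild-type mice. Its change was −0.19 ± 0.08 (SE, adjusted p 0.41) and the genotypes did not overlap, with 499 as the highest transgenic and 507 as the lowest wild-type value. Its paralog Sec23b had a change of 0.01, with values that overlapped. Sec24 subunits pick the cargo. Sec24a had 665, 621 and 611 in the transgenic mice, against 677, 752 and 761 in the wild-type mice, a change of −0.20 ± 0.08 (SE, adjusted p 0.38). Sec24c, the COPII gene with the highest change, had 1449, 1500 and 1557 in the transgenic mice, against 1492, 1463 and 1356 in the wild-type mice. These overlapped, with a change of 0.06 ± 0.08 (SE, adjusted p 0.80) and an interval of −0.11 to 0.24. The remaining COPII genes, the cargo adaptors Sec24b and Sec24d and the exit site scaffold Sec16a, had changes of −0.02, −0.01 and −0.10. Of these 3 genes, the genotypes were separate in Sec16a alone, at 715 ± 8.79 in transgenic and 766 ± 26.2 in wild-type prostates (SD, n = 3 each).

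The COPI coat is a complex of 7 subunits that Arf1, once loaded with GTP, draws onto Golgi membranes as a unit. The 42 genes hold 6 of these subunits, without the γ subunit, and with the GTPases Arf1 and Arf4 they gave 8 genes, of which 0 passed the threshold and 0 had an unadjusted p under 0.05 in limma. All 8 had changes below 0, none beyond −0.13, against 46.1% of all genes with changes below 0. The γ subunit genes, which are not among the 42 and were looked up after the other values were seen, had changes above 0. Copg1 had 1040, 1102 and 1069 in the transgenic mice, against 1027, 999 and 948 in the wild-type mice, a change of 0.11 ± 0.07 (SE, adjusted p 0.61). Copg2 had 2360, 2199 and 2131 in the transgenic mice, against 2068, 1606 and 2104 in the wild-type mice, a change of 0.22 ± 0.12 (SE, adjusted p 0.51). In both genes every transgenic mouse lay above every wild-type mouse, and neither passed the threshold. Over all genes 10.5% were separate with higher values. Copb2, the β′ subunit that binds the dilysine signal of returning cargo, had 2626, 2670 and 2730 in the transgenic mice, against 3056, 2868 and 2897 in the wild-type mice. Its change was −0.13 ± 0.07 (SE, adjusted p 0.50) and its genotypes were separate, as were those of Copb1, Copz1 and Arf4 at changes of −0.09, −0.10 and −0.08. So 4 of the 8 were lower without overlap, against 8.61% of all genes and 12.2% of the bright genes. Copa, Cope and Arcn1, the α, ε and δ subunits, had changes of −0.02, −0.02 and −0.05 with overlapping values. Arf1 had 5027, 4974 and 5154 in the transgenic mice, against 5306, 4943 and 5039 in the wild-type mice. Its change was −0.01 ± 0.07 (SE, adjusted p 0.97) with an interval of −0.18 to 0.15.

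Members of the p24 family, the Tmed proteins, span the membrane of both kinds of vesicle and carry GPI-anchored proteins among other cargo. Of 7 genes 0 passed the threshold in limma, and 2 had an unadjusted p under 0.05 (both lower), against 5.27% of all genes. Changes were below 0 in 5, against 46.1% of all genes. Tmed3 had 3497, 3192 and 3194 in the transgenic mice, against 3759, 3717 and 3875 in the wild-type mice. Its change was −0.20 ± 0.08 (SE, adjusted p 0.35), without overlap. Tmed9 had 975, 942 and 984 in the transgenic mice, against 1105, 1084 and 1068 in the wild-type mice, a change of −0.17 ± 0.07 (SE, adjusted p 0.39), again without overlap. Tmed2 was the third with separate genotypes, at a change of −0.12. These 3 of 7 compare with 8.61% of all genes and 12.2% of the bright genes. Tmed7 went the other way, at 1853, 1846 and 1761 in the transgenic mice, against 1911, 1624 and 1713 in the wild-type mice. Its change of 0.06 ± 0.09 (SE, adjusted p 0.84) was within the spread of the wild-type mice, which spanned both ends of the range. Tmed4, Tmed5 and Tmed10 had overlapping values and changes of −0.04, −0.08 and 0.01.

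Beside the KDEL receptors, 4 cargo receptors of the early secretory pathway were measured. Lman1 (ERGIC-53) is a lectin that in humans exports coagulation factors together with its partner Mcfd2. It had 1617, 1578 and 1565 in the transgenic mice, against 1899, 1731 and 1774 in the wild-type mice. The genotypes did not overlap, and the change was −0.18 ± 0.07 (SE, adjusted p 0.38). Mcfd2 had a change of −0.15 ± 0.08 (SE, adjusted p 0.53), with transgenic replicate 1 (919.4) above wild-type replicate 3 (896.4). Lman2, a related lectin, had 1276, 1329 and 1293 in the transgenic mice, against 1416, 1213 and 1252 in the wild-type mice, a change of 0.01 ± 0.08 (SE, adjusted p 0.98). Surf4, a receptor for several soluble cargoes, had one of −0.03. Lman2 and Surf4 overlapped between the genotypes, and the change of Lman2 was −0.01 with quantile normalisation and −0.03 with median centring of the arrays. With Kdelr3, 2 of the 6 measured receptor genes were lower without overlap, against 8.61% of all genes and 12.2% of the bright genes.

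SNAREs pull vesicle and target membrane together, and the 5 measured act between ER and Golgi or within the Golgi. All 5 had changes below 0, against 46.1% of all genes. In limma 0 passed the threshold and 1 had an unadjusted p under 0.05 (lower), against 5.27% of all genes. Sec22b, the SNARE carried on the vesicle, had 1111, 1128 and 1046 in the transgenic mice, against 1293, 1287 and 1249 in the wild-type mice. Its change was −0.22 ± 0.07 (SE, adjusted p 0.28) with separate genotypes. Gosr1, which acts in the Golgi stack, had 608, 582 and 629 in the transgenic mice, against 674, 553 and 619 in the wild-type mice, overlapping, with a change of −0.02 ± 0.09 (SE, adjusted p 0.96). Bet1 was separate at a change of −0.10, and Gosr2 and Stx5a overlapped at −0.03 and −0.08. Thus 2 of the 5 were lower without overlap, against 8.61% of all genes and 12.2% of the bright genes.

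Of 4 tethers and Golgi adaptors, all 4 had changes below 0, against 46.1% of all genes. In limma 0 passed the threshold and 2 had an unadjusted p under 0.05 (both lower), against 5.27% of all genes. Uso1 (p115) is a long coiled protein that catches incoming vesicles and binds Golga2 (GM130) and Golgb1 (giantin). Uso1 had 2222, 2256 and 2167 in the transgenic mice, against 2699, 2612 and 2781 in the wild-type mice. The highest transgenic mouse, at 2256, lay well below the lowest wild-type mouse, at 2612. The change was −0.28 ± 0.07 (SE, adjusted p 0.15). Golgb1 had 590.4, 621 and 649.8 in the transgenic mice, against 733, 732 and 728 in the wild-type mice. Its wild-type mice were within 5 units of each other, the transgenic mice were all lower, and the change was −0.23 ± 0.07 (SE, adjusted p 0.26). Golga2 had 470.0, 517 and 520.1 in the transgenic mice, against 571, 478 and 498 in the wild-type mice. Those values overlapped and the change was −0.03 ± 0.09 (SE, adjusted p 0.92). Golph3, which holds glycosylation enzymes in the Golgi, was separate at a change of −0.12. In this role 3 of the 4 were lower without overlap, against 8.61% of all genes and 12.2% of the bright genes.

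**Figure D2:**
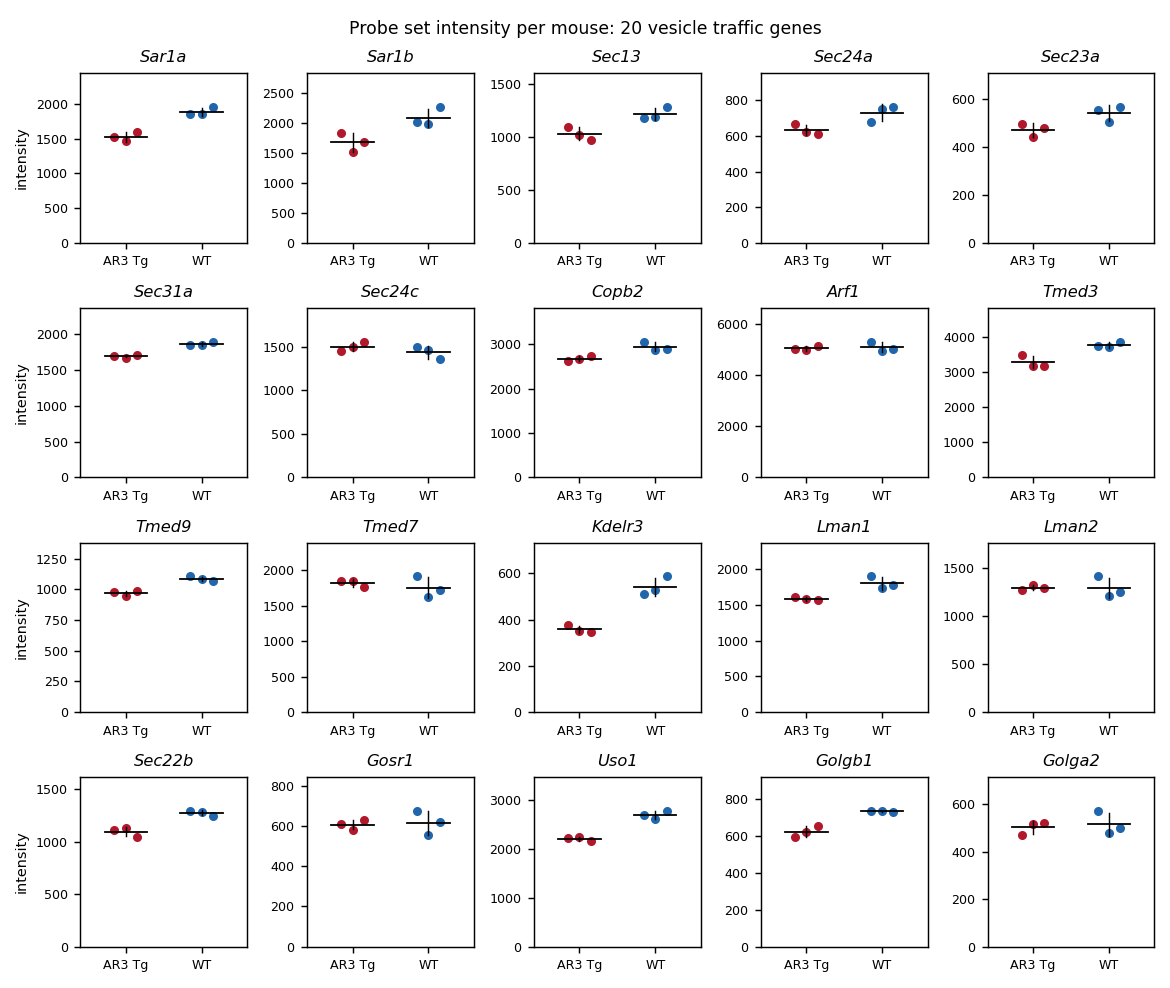
Probe set intensity (y axis, linear from 0) of the 20 genes given mouse by mouse, with AR3 transgenic mice (AR3 Tg, red) left of wild-type mice (WT, blue). Points are mice, horizontal bars group means and vertical bars SD (n = 3 each). Of the 20, Kdelr3 shows the widest gap between genotypes relative to its level, with transgenic values up to 376.3 and wild-type values from 509.7.

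Paralogs on the same arrays share RNA and scaling, so their log2 ratio within each mouse was compared between genotypes in 9 pairs, chosen after the values were seen. Probe sets differ in how brightly they respond, so only the difference of a ratio between genotypes can be read, not its size. With 3 mice against 3, an exact permutation test cannot go below 0.1 (two-sided). The pairs were picked from these same values, so the p-values of all 9 pairs describe the ratios and carry no support. The log2 ratio of Kdelr3 to Kdelr1 was −1.80 ± 0.02 in transgenic and −1.26 ± 0.10 in wild-type prostates (SD, n = 3 each; exact permutation p 0.1, adjusted 0.18). That of Sec23a to Sec23b was −1.52 ± 0.09 in transgenic and −1.31 ± 0.12 in wild-type prostates (SD, n = 3 each; exact permutation p 0.1, adjusted 0.18), and that of Lman1 to Lman2 was 0.29 ± 0.05 in transgenic and 0.47 ± 0.05 in wild-type prostates (SD, n = 3 each; exact permutation p 0.1, adjusted 0.18). In these 3 pairs the first gene was lower against its partner in every transgenic mouse than in any wild-type mouse, and each p is the smallest possible. The ratio of Sar1a to Sar1b differed by 0.01 between the genotypes (exact permutation p 0.9). The ratios of Sec24a to Sec24b, Sec24c and Sec24d differed by −0.18, −0.26 and −0.19, with overlapping mice (exact permutation p 0.2 each, adjusted 0.23), and that of Sec24c to Sec24d by 0.08 without overlap (exact permutation p 0.1, adjusted 0.18).

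For Arf1, Tmed2, Tmed10 and Golph3 the array held further probe sets of the same symbol. The brightest probe set of Arf1, of Tmed2 and of Tmed10 stands among identifiers whose 10 nearest annotated neighbours include 0 genes of the gene's own chromosome. The probes' own sequences were not read, so signal from related copies elsewhere in the genome was not separated. The probe sets of these genes that do lie among neighbours of their own chromosome had changes of −0.01 for Arf1, −0.12 for Tmed2 and −0.08 for Tmed10, against −0.01, −0.12 and 0.01 for those used. The second probe set of Golph3 had a change of −0.01, against −0.12 for the one used.

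Other genes of ER to Golgi traffic were read from a list of 103, of which 100 were measured. Called were 2, both lower (2.0%, against 0.456% of all genes). Blzf1 (golgin-45), a Golgi protein that binds the small GTPase Rab2, had 561, 544 and 509 in the transgenic mice, against 715, 747 and 756 in the wild-type mice. It fell without overlap of the genotypes, with a log2 change of −0.45 ± 0.08 (SE, adjusted p 0.034). Copz2, the second form of the ζ subunit of the COPI coat, had 1732, 1841 and 1634 in the transgenic mice, against 2288, 2734 and 2677 in the wild-type mice. It fell as well, with a change of −0.56 ± 0.10 (SE, adjusted p 0.036), and its ratio to Copz1 was 0.57 ± 0.10 in transgenic and 1.03 ± 0.16 in wild-type prostates (SD, n = 3 each; exact permutation p 0.1, adjusted 0.18). Both calls were lost without wild-type replicate 2 or 3 or any transgenic replicate, with adjusted p up to 0.19 for Blzf1 and 0.20 for Copz2, and at an added constant of 1 (0.059 and 0.072). Of the 100, 69 had changes below 0, against 46.1% of all genes. With an unadjusted p under 0.05, 15 had lower values, against 5.27% of all genes, and 3 higher values, against 6.91%. The transgenic values lay all below the wild-type values in 29 genes and all above in 11, against 8.61% and 10.5% of all genes. The median change was −0.06, against 0.01 over all genes.

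The step before and the step after were described in the same way. Of 47 measured genes of ER translocation, folding and stress, 0 were called in limma, and the median change was −0.14. Changes below 0 were seen in 42 (89.4%, against 46.1% of all genes). Lower values with an unadjusted p under 0.05 were found for 17 (36.2%, against 5.27%). The transgenic values lay all below the wild-type values in 19 (40.4%, against 8.61%) and all above in 0 (against 10.5%). Derl3, which helps to move misfolded proteins out of the ER, had 1026, 870.5 and 902 in the transgenic mice, against 1487, 1169 and 1557 in the wild-type mice, a change of −0.57 ± 0.12 (SE, adjusted p 0.091). Herpud1, which serves the same disposal route, had 3323, 3131 and 2745 in the transgenic mice, against 4600, 3741 and 5607 in the wild-type mice, a change of −0.58 ± 0.15 (SE, adjusted p 0.16). In both genes wild-type replicate 2 was the lowest of the wild-type mice and stood nearest to the transgenic mice. Of 22 genes of clathrin and its adaptors, which form vesicles after the Golgi, 0 were called in limma, 8 had changes below 0 and the median was 0.03. The share below 0 was 36.4%, against 46.1% of all genes. An unadjusted p under 0.05 was found for 2 with lower and 1 with higher values, against 5.27% and 6.91% of all genes. The transgenic values lay all below the wild-type values in 5 and all above in 2, against 8.61% and 10.5% of all genes. Ap1s2, a subunit of the adaptor AP-1, had a change of 0.40 ± 0.09 (SE, adjusted p 0.12), and Gga2, another adaptor of the late Golgi, one of −0.32 ± 0.08 (SE, adjusted p 0.13). No difference between these lists was tested.

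**Figure D3:**
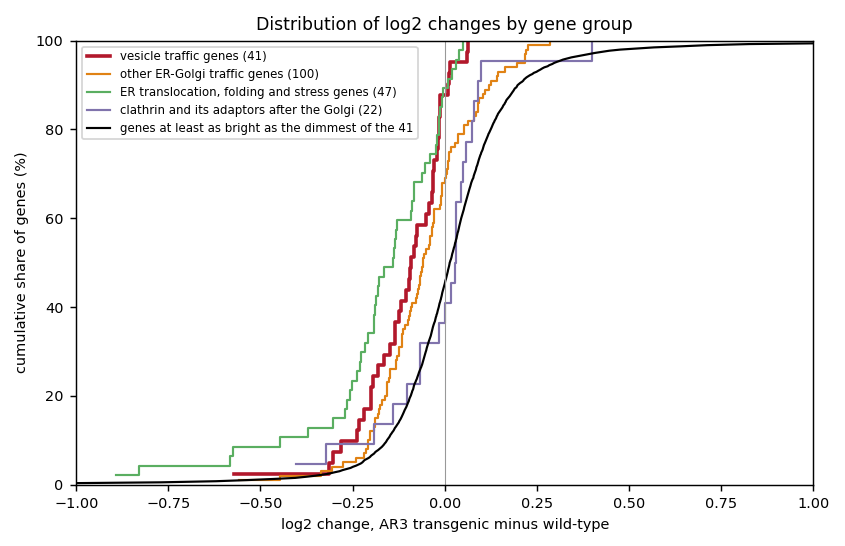
Cumulative share of genes (y axis, %) against the log2 change between AR3 transgenic and wild-type prostates (x axis, drawn from −1 to 1) for the 41 traffic genes, 3 other lists, and the 6652 genes at least as bright as the dimmest of the 41. At a change of 0 the traffic genes have reached 87.8%, the ER folding list 89.4%, the other ER to Golgi genes 69.0%, the clathrin list 36.4% and the bright genes 45.2%.

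Array by array, each gene's log2 deviation from its mean over the 6 arrays was taken, and the median over the genes of a group describes that array. For the 41 traffic genes it was −0.03, −0.07 and −0.05 on the transgenic arrays and 0.09, 0.03 and 0.02 on the wild-type arrays. The 2 genotypes did not overlap. The highest array was wild-type replicate 1, which was the lowest for all genes together, at −0.05. Without that array 29 of the 41 changes were below 0, in place of 36, and the median was −0.09, against −0.03 over all probe sets. Also without it, 21 of 41 genes had all transgenic values below the wild-type values, against 20.8% of the bright genes. For the tethers it was −0.12, −0.10 and −0.06 on the transgenic arrays and 0.13, 0.08 and 0.12 on the wild-type arrays, and for the COPII coat −0.03, −0.09 and −0.06 on the transgenic arrays and 0.08, 0.05 and 0.09 on the wild-type arrays. Both groups were separate between genotypes. The p24 family was not, since transgenic replicate 1 (−0.01) lay above wild-type replicate 3 (−0.02). The ER folding list stood at −0.03, −0.09 and −0.08 on the transgenic arrays and 0.08, −0.01 and 0.13 on the wild-type arrays, and among its wild-type arrays replicate 3 was highest and replicate 2 lowest.

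**Figure D4:**
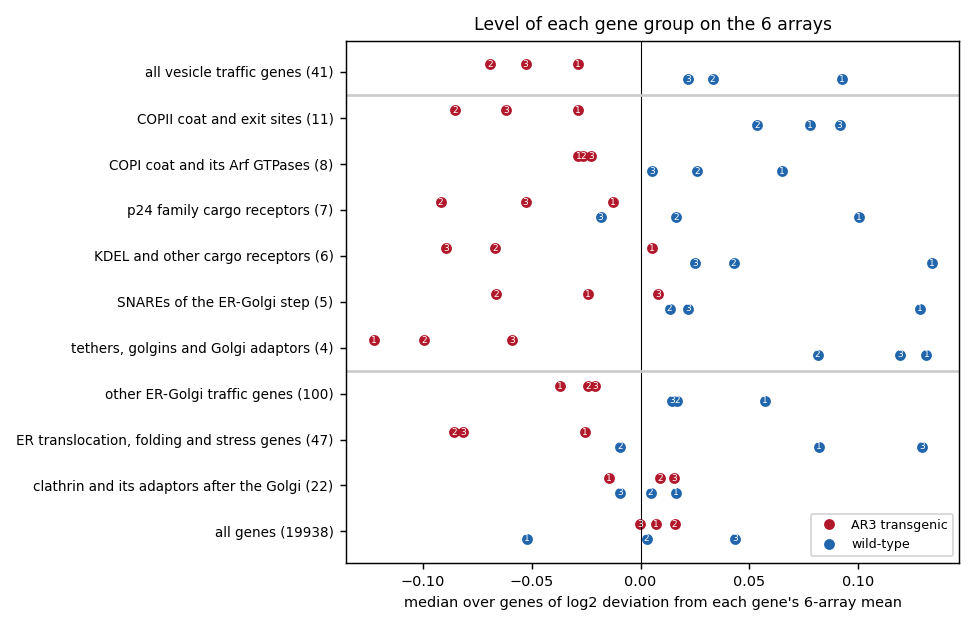
Median over the genes of a group of the log2 deviation from each gene's mean over 6 arrays (x axis), for the traffic genes, their 6 roles, 3 other lists and all genes, with the number of genes in brackets. Each point is 1 array with its replicate number, AR3 transgenic in red above wild-type in blue. The 41 genes lie between −0.07 and −0.03 on transgenic arrays and between 0.02 and 0.09 on wild-type arrays.

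Markers of whole cell types also differed between the genotypes on the same arrays. The summed intensity of 11 prostate secretory genes was 51284 to 56059 in transgenic and 62709 to 66912 in wild-type prostates. Of them 4 were called lower and 1 higher, against 0.456% and 1.18% of all genes. Changes were below 0 in 7 of the 11 and above 0 in 4, with a range of −1.17 to 4.03. That of 10 measured luminal markers (of 12) was 22306 to 22922 in transgenic and 19818 to 21804 in wild-type prostates. For 9 of 10 myeloid markers it was 1250 to 1573 in transgenic and 776 to 1099 in wild-type prostates, and for 5 endothelial markers 673 to 728 in transgenic and 451 to 626 in wild-type prostates. In these 4 lists the sums of the genotypes did not overlap, but a sum rests mostly on its brightest genes. Of the 10 luminal markers 7 had changes above 0 and 3 below, and 0 were called. Their genotypes were separate in 3 with higher and 2 with lower transgenic values. All 9 myeloid and all 5 endothelial markers had changes above 0, with separate genotypes in 3 and 1. Called higher were 1 of the 9 and 1 of the 5, against 1.18% of all genes. Over all genes 10.5% were separate with higher and 8.61% with lower values. All 8 fibroblast and matrix markers had changes above 0, with a median of 0.55 on the log2 scale. Of these 4 had an unadjusted p under 0.05 and 0 were called in limma. Their sums were 5459 to 7889 in transgenic and 4090 to 5853 in wild-type prostates, with overlap. For 7 seminal vesicle genes the sums were 2668, 1604 and 8953 in the transgenic mice, against 4801, 690 and 866 in the wild-type mice. These overlapped too, and transgenic replicate 3 and wild-type replicate 1 stood highest within their genotypes. Of the 7, 4 had changes below 0 and 3 above, and 1 was called lower (0.456% of all genes). Sums over 7 basal, 7 smooth muscle, 7 skeletal muscle, 7 of 8 plasma and B cell, 5 adipocyte and 3 of 5 nerve markers overlapped too. Of the 7 basal markers 6 had changes above 0 and 1 was called higher, against 1.18% of all genes. No marker was at 0, but 5 of the 7 plasma and B cell markers and all 3 nerve markers had means below 66.9 on the background scale. So did 2 of the 7 seminal vesicle, 2 of the 5 adipocyte and 1 of the 9 myeloid markers. The part of these shifts in the lower levels of the traffic genes was not tested.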

How the data were processed

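Total RNA of dissected prostates was biotinylated with a whole-transcript kit, per the labels' protocols, and hybridised to 1 array per mouse, numbered 1 to 3 in each genotype. The authors deposited 1 table of probe set intensity values on a linear scale. Its background correction and normalization are not named in the sources used here. The values were used as deposited, as log2(intensity + 16), so changes of dim genes are understated. Of 35512 probe sets, 6568 array controls were left out and 28944 were tested with limma 3.58.1 (lmFit and eBayes, R 4.3.3), 2-sided, with Benjamini-Hochberg adjustment over all of them and a threshold of 0.05. The intensity of a gene is that of its brightest probe set with 1 symbol in the platform annotation.

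The 42 genes and the other lists were chosen with earlier results of these data known, so no test over a list was made. Values per mouse are given for 20 of them by a rule (calls, then the smallest p, then the highest and lowest change of each role). From each other list the called genes are named or, with none, the 2 with the smallest p. Kdelr1, Copg1 and Copg2 were added after their values were seen. The labels do not say whether the numbers pair the mice, and the main fit did not pair them. Deviations of same-numbered mice correlated between −0.16 and 0.05 over 3 pairs. With 3 mice per genotype this cannot decide whether they were paired. Alternatives covered scaling, filters, the added constant, variance models, array weights, the mouse number as a block, the choice of probe set, and each array left out. Protein sequences were not used here.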

Additional observations from a re-analysis of the deposited data

How the results depend on the processing

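The lower call of Kdelr3 was the only one among the 41 traffic genes in 9 of 16 alternatives. Calls numbered 3 with an added constant of 64, 3 with an intensity trend and robust variances (Sar1a, Kdelr3 and Uso1 both times), 0 in the replicate block fit on mouse numbers (adjusted p of Kdelr3 0.10), and 0 to 1 without any 1 array. The calls of Blzf1 and Copz2 were lost in 7 of 14 alternatives, with adjusted p of 0.17 and 0.11 in the block fit. Over all probe sets 425 were called, against 678 with the trend, 1202 with array weights, 250 with the block and 234 to 519 without any 1 array. Higher and lower calls split 305 to 120, against 311 to 160 with quantile normalisation, 314 to 264 with median centring and 686 to 516 with array weights. The median change of the traffic genes was −0.13 with median centring (all probe sets −0.03) and −0.11 to −0.08 without any 1 array. From 29 to 39 of the 41 had changes below 0, and 18 to 24 had genotypes apart with the transgenic values lower, which for bright genes was 15.2% to 20.8%. Of 22 named genes 18 kept their sign throughout. Lman2 was −0.011 with quantile normalisation, −0.029 with centring and −0.035 to 0.075 without any 1 array. With array weights Arf1 was 0.019, Golga2 0.041 and Gosr1 0.081, and without any 1 array they ranged from −0.034 to 0.017, −0.084 to 0.039 and −0.090 to 0.049. The cause was not tested. The choice of probe set by neighbours and the counts of genotypes apart under other settings were added after seeing the data. The number of arrays limits what can pass the threshold.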
